A study of Mus musculus with 6 samples.

Results

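The genes described here encode the proteins of the cytosolic ribosome: 85 of the 55414 genes in the deposited table, 52 of the large subunit and 33 of the small subunit. They were taken by symbol: protein-coding genes whose mouse symbol starts with Rpl or Rps and a digit, plus Rplp0, Rplp1, Rplp2 and Rpsa, without pseudogenes marked -ps, the Rps6k kinases and Rps19bp1. Of these, 77 are the core genes of the ribosome (46 large, 31 small) and 8 are paralogs, genes related to a core gene and taken by the ending of their symbol. They are Rpl3l, Rpl7l1, Rpl10l, Rpl22l1, Rpl36al, Rpl39l, Rps27l and Rps27rt. Whether each can stand in for its core protein was not tested. All 77 core genes passed the filter on low counts. Of the paralogs 7 passed, and Rpl10l had 0 counts in every library.

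The series title asks how antigen receptor stimulation acts through an exon of the splicing activator gene Tra2b on the fate of T cells. The samples hold polyadenylated RNA in 3 groups of 2 libraries, all labelled CD8+ T cells of OT-I genotype from spleen and lymph nodes (the design text names spleens). OT-I is a transgenic receptor for a fragment of ovalbumin. The N4 group came 4 days after that fragment, the T4 group 4 days after a variant peptide of lower potency, each with anti-OX40 and anti-41BB antibodies that engage costimulatory receptors, and the naive group is labelled only as naive. The labels do not say whether the libraries of a group came from separate mice, so p-values measure the spread between these libraries only. They do not say how the cells were isolated or what the antibodies alone do.

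A ribosome joins a small subunit, which reads the mRNA, to a large subunit, which forms peptide bonds, and each contains a single copy of most of its proteins. Naive T cells make little protein, and antigen receptor signals are known to raise ribosome production and translation before the cells divide. Ribosomal protein mRNAs are known as TOP mRNAs: they start with a cytosine and a run of pyrimidines, through which mTORC1 controls how many of them are translated, so that protein output can change without a change of mRNA level.

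Runs of pyrimidines, though not where transcripts start, can be looked for in the DNA around the annotated start sites. The windows below run from 35 bases before to 15 bases from the annotated start, 5′ to 3′ on the gene's strand, from RefSeq promoters on GRCm38. Capitals mark the longest run of C and T that lies within 25 bases of the start. Where runs are of equal length, as in Rps27l, the first is marked. Rps6 is the small subunit protein phosphorylated by S6 kinases, and Rpl35a and Rpl14 are large subunit genes that moved in opposite directions below. The others are the paralogs Rps27l and Rpl39l beside their core copies, and the paralog Rpl22l1 without its core copy.
Rps6 (chr4:86857353-86857402, minus strand): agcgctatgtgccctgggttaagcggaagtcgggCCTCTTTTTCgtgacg
Rpl35a (chr16:33056447-33056496, plus strand): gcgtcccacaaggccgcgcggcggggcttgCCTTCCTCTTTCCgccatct
Rpl14 (chr9:120571482-120571531, plus strand): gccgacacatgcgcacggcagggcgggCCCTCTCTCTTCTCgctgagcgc
Rps27 (chr3:90213634-90213683, minus strand): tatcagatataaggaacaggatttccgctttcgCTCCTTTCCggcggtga
Rps27l (chr9:66946051-66946100, plus strand): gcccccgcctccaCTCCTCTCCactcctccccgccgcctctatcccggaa
Rpl39 (chrX:37085208-37085257, minus strand): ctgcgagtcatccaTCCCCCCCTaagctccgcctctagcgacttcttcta
Rpl39l (chr16:10170193-10170242, plus strand): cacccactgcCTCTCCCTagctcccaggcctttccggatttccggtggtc
Rpl22l1 (chr3:28805473-28805522, plus strand): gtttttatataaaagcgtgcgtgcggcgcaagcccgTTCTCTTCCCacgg
In Rps6, Rpl35a, Rpl14 and Rps27 the run spans the annotated start. In Rps27l, Rpl39 and Rpl39l it lies upstream of it, and in Rpl22l1 just after it. RefSeq promoters matched 65 of the 85 genes. A run of at least 8 C or T on the sense strand within 25 bases of the start was present in 33 of them (50.8%), against 22.3% of 27025 genes with a promoter. The motif CGGAAGT, the letters that ETS factors such as GABP are known to bind, searched on both strands of the 300-base window, was present in 22 (33.8%), against 7.2% of all. Such a match is a description of letters and not of binding or of a transcript's true start.

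The CD8 T cell label could be checked, and the libraries differed in other cells. The 7 CD8 T cell markers summed to 3495 and 4432 CPM (counts relative to library depth, scaled between libraries) in N4, with 3113 and 3288 in T4 against 4541 and 4611 in naive libraries. Most of that sum is Cd3d, at 2150 and 3010 CPM in N4, with 1370 and 1570 in T4 against 1890 and 2740 in naive libraries. The coreceptor gene Cd8a stood at 84.4 and 72.2 CPM in N4, with 114 and 104 in T4 against 183 and 106 in naive libraries, and Cd8b1 at 187 and 164 in N4, with 433 and 416 in T4 against 703 and 321 in naive libraries. The median log2 fold change of the 7 markers was -0.89 in N4 against naive and -0.77 in N4 against T4. Summed over 11 macrophage and monocyte markers, the level was 21.1 and 17.0 CPM in N4, with 272.6 and 259.7 in T4 against 2281 and 2675 in naive libraries. Over 8 neutrophil markers it was 47.6 and 39.2 CPM in N4, with 10.8 and 3.93 in T4 against 2442 and 25330 in naive libraries. Over 7 red cell markers it was 422.7 and 359.8 CPM in N4, with 6510 and 8123 in T4 against 3447 and 9231 in naive libraries. None of these lists had a marker at 0 in every library. Naive libraries thus carried the most RNA of myeloid cells, N4 libraries the least of the macrophage and red cell lists, T4 libraries the least of the neutrophil list, and naive replicate 2 stood apart for neutrophil genes. Lists of natural killer and dendritic cell markers were also lowest in N4 and highest in naive libraries, and that of B cells was lowest in N4. The CD4 and regulatory T list was lowest in T4, and the stromal and endothelial list was highest in N4 replicate 1. Other cells express ribosomal proteins too, so these levels move with every comparison below, and their part in the results was not tested. In bulk RNA, fewer cells of a type and less RNA per cell cannot be told apart.

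As a whole, ribosomal protein mRNA took up 13.4% to 15.5% of the counts of the 6 libraries. Large subunit genes held 6.92% and 6.99% of all counts in N4, with 7.04% and 7.48% in T4 against 7.31% and 7.70% in naive libraries. Small subunit genes held 6.64% and 6.76% in N4, with 6.37% and 6.80% in T4 against 7.07% and 7.77% in naive libraries. Both N4 libraries were below both naive libraries for each subunit, by 0.55 points for the large and 0.72 points for the small subunit. T4 libraries overlapped naive ones for the large subunit and lay below them for the small subunit, by 0.84 points. With 2 libraries against 2, an exact two-sided permutation test cannot go below p = 0.33, which is the value of each of these separations. Per transcript length the large subunit shares of N4 and naive libraries overlapped, at 9.38% and 9.25% in N4 and 10.2% and 9.21% in naive libraries. The small subunit shares stayed apart, at 8.74% and 8.69% in N4 and 10.2% and 9.53% in naive libraries. Of nuclear protein-coding counts without globin genes, large subunit genes held 7.78% and 7.96% in N4 and 8.29% and 9.32% in naive libraries. Small subunit genes held 7.47% and 7.69% of these in N4 and 8.02% and 9.41% in naive libraries.

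The balance of the subunits was also close to even. Summed large subunit counts were 1.04 and 1.03 times the small subunit counts in N4, with 1.11 and 1.10 times in T4 against 1.03 and 0.99 times in naive libraries. Both T4 libraries were thus above both N4 and both naive libraries. Per transcript length the ratio was 1.07 and 1.06 in N4, with 1.08 and 1.08 in T4 against 1.00 and 0.966 in naive libraries, so that T4 was above N4 by less, and both stimulated groups were above naive. Pseudogenes marked -ps, 298 in number, held 3.73% to 3.93% of the counts of members and pseudogenes together in every library.

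**Figure D1:**
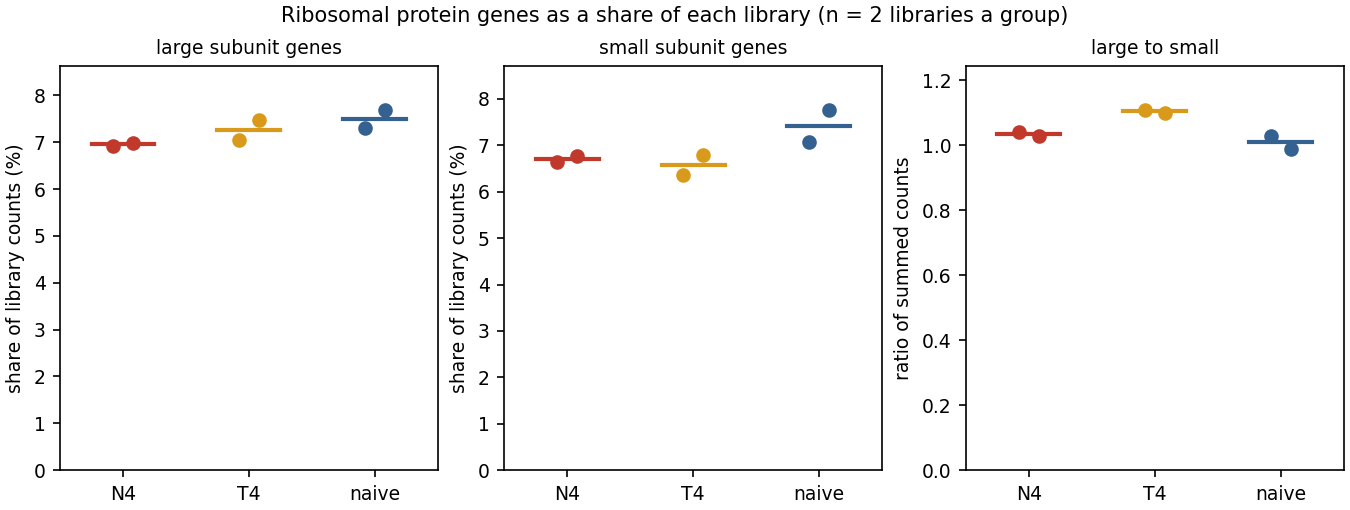
Share of all library counts held by large subunit genes (left) and small subunit genes (middle) in percent, and the ratio of their summed counts (right), for N4, T4 and naive libraries. Points are libraries, 2 a group, and lines are means; large subunit shares run from 6.92% in N4 to 7.70% in naive libraries, and the ratio is highest in T4, at 1.11 and 1.10.

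The levels of single genes covered a wide range although their proteins are needed in equal numbers. Levels between genes are given as TPM, which divides by transcript length. In N4 libraries Rps29 averaged 10680 TPM, Rpl41 7484, Rpl32 7095, Rpl38 6653 and Rps27 6427 TPM. In T4 libraries the highest were Rps27 at 7710, Rps29 at 7643 and Rpl32 at 7598 TPM, and in naive libraries Rps27 at 13720, Rps29 at 9482 and Rpl32 at 8345 TPM. The lowest core genes were the same 4 in every group, the large subunit genes Rpl4, Rpl3, Rpl7a and Rpl6. Rpl4 averaged 59.2 TPM in N4, with 217 TPM in T4 against 141 TPM in naive libraries. Rpl3, which lies near the peptide-bond-forming centre, averaged 81.0 TPM in N4, with 231 TPM in T4 against 153 TPM in naive libraries. These extremes were chosen after their values were seen. The transcripts of the 4 lowest that were searched for shared sequence were 914 to 1538 nt long, against 345 nt for Rps27 and 390 nt for Rps29. Of their short stretches, 85.6% in Rpl3, 81.2% in Rpl7a, 64.3% in Rpl6 and 16.5% in Rpl4 also lie in other genes. In Rps27 and Rps29 these were 98.6% and 35.8%. How much length and shared sequence add to the range of levels was not tested.

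Against naive libraries, 2 ribosomal protein genes were higher in N4 past the threshold of an adjusted p of 0.05, the paralogs Rpl39l and Rpl22l1. By edgeR's quasi-likelihood test none of the 77 core genes was called. Across all 23003 genes tested, 12.1% were called, 4.87% higher and 7.18% lower. The paralog Rpl3l was also called, lower, but it passed the filter on low counts through the naive group, so that a fall was the only direction open to it. The core genes spread to both sides instead, 47 with a positive and 30 with a negative log2 fold change. The plot of fitted changes shows the core genes except those on a list of genes not drawn.

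Rpl39l (ENSMUSG00000039209.13, GRCm38 chromosome 16, 10170226 to 10174911, plus strand), a copy of Rpl39 known in mice from the male germ line, was found at 15.6 and 20.4 CPM in N4 and at 2.11 and 4.50 CPM in naive libraries. Both N4 libraries were above both naive libraries, and the log2 fold change was 2.45 ± 0.43 (SE, adjusted p = 0.023). Rpl22l1 (ENSMUSG00000039221.11, chromosome 3, 28805436 to 28807424, plus strand), the paralog of Rpl22, stood at 835.5 and 1177 CPM in N4 and at 265.2 and 420.7 CPM in naive libraries. The groups did not overlap, and the log2 fold change was 1.55 ± 0.34 (SE, adjusted p = 0.040). Both calls are near the threshold: without N4 replicate 1 or 2 the adjusted p was 0.058 and 0.092 for Rpl39l and 0.079 and 0.17 for Rpl22l1, and without naive replicate 1 it was 0.063 for Rpl22l1. Without T4 replicate 1 or 2, whose libraries share the estimate of the spread, it was 0.051 and 0.054 for Rpl39l and 0.12 and 0.13 for Rpl22l1.

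Rpl3l (ENSMUSG00000002500.16, chromosome 17, 24727820 to 24736143, plus strand), the copy of Rpl3 known from heart and skeletal muscle, had 9 and 20 counts in N4 libraries and 526 and 982 in naive libraries. The log2 fold change was -5.21 ± 0.90 (SE, adjusted p = 0.023), and the adjusted p was 0.077 and 0.065 without N4 replicate 1 or 2. Even in naive libraries this is 1.20 and 3.93 CPM, and both N4 libraries were below both naive libraries. Naive libraries also held the most RNA of macrophage and neutrophil markers, as given above.

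Among core genes, N4 against naive gave no call by edgeR's quasi-likelihood test in either subunit. At an unadjusted p under 0.05 there were 5 large subunit genes higher and 8 lower, and 3 small subunit genes higher and 1 lower, beside 30.8% of all genes. DESeq2, which called 26.9% of all genes here, called 3 large subunit genes higher and 9 lower, and 1 small subunit gene higher and 1 lower. The median log2 fold change was 0.11 for large and 0.47 for small subunit genes, against -0.09 for all genes and 0.76 for 603 other genes of similarly high level (mean log2 CPM of at least 8). The naive libraries differed from each other by more than that: over core genes the median log2 difference of naive replicate 1 minus replicate 2 was -0.77. Without naive replicate 1 the medians of large and small subunit genes were -0.10 and -0.044, and without naive replicate 2 they were 0.31 and 0.87. Which naive library is used decides the calls: without naive replicate 2, 15 large and 10 small subunit genes were called higher and 3 and 0 lower, where 17.4% of all genes were called. Without naive replicate 1, 7 large and 5 small subunit genes were called lower and none higher, where 9.57% were. Groups did not overlap for 15 of 46 large and 11 of 31 small subunit genes on the high side, as did 26.5% of all genes, and for 9 and 5 on the low side, as did 28.9%. With library totals in place of the scaling these were 14 and 10 on the high side (16.3% of all genes) and 21 and 14 on the low side (37.6%), so the balance of sides turned.

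On the large subunit Rpl39, Rpl38 and Rpl35a had the largest positive values. Rpl39, a small protein of the peptide exit tunnel, stood at 2222 and 3037 CPM in N4 and at 679.5 and 1380 CPM in naive libraries (log2 fold change 1.35 ± 0.41, SE, adjusted p = 0.086). Rpl38, known from mouse mutants with an altered axial skeleton, had a log2 fold change of 1.31 ± 0.46 (SE, adjusted p = 0.12), and Rpl35a of 1.31 ± 0.39 (SE, adjusted p = 0.081). On the small subunit Rps21 and Rps13 had values of 1.00 each (adjusted p = 0.17 and 0.15).

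Among the most negative were Rpl13 and Rpl14 on the large subunit. Rpl13 stood at 439.2 and 233.5 CPM in N4 and at 1217 and 718.7 CPM in naive libraries (log2 fold change -1.52 ± 0.42, SE, adjusted p = 0.067). Rpl14 had -0.89 ± 0.23 (SE, adjusted p = 0.059). On the small subunit they were Rps19, mutated in human Diamond-Blackfan anaemia, at -0.77 (adjusted p = 0.16), Rps6 at -0.66 (adjusted p = 0.13) and Rps27 at -0.56 (adjusted p = 0.37). Separate groups were seen for Rpl13, Rpl14, Rps19 and Rps6, whose N4 libraries were both below both naive libraries, whereas Rps27 overlapped. These genes were picked for their change, and 28.9% of all genes were apart on this side.

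**Figure D2:**
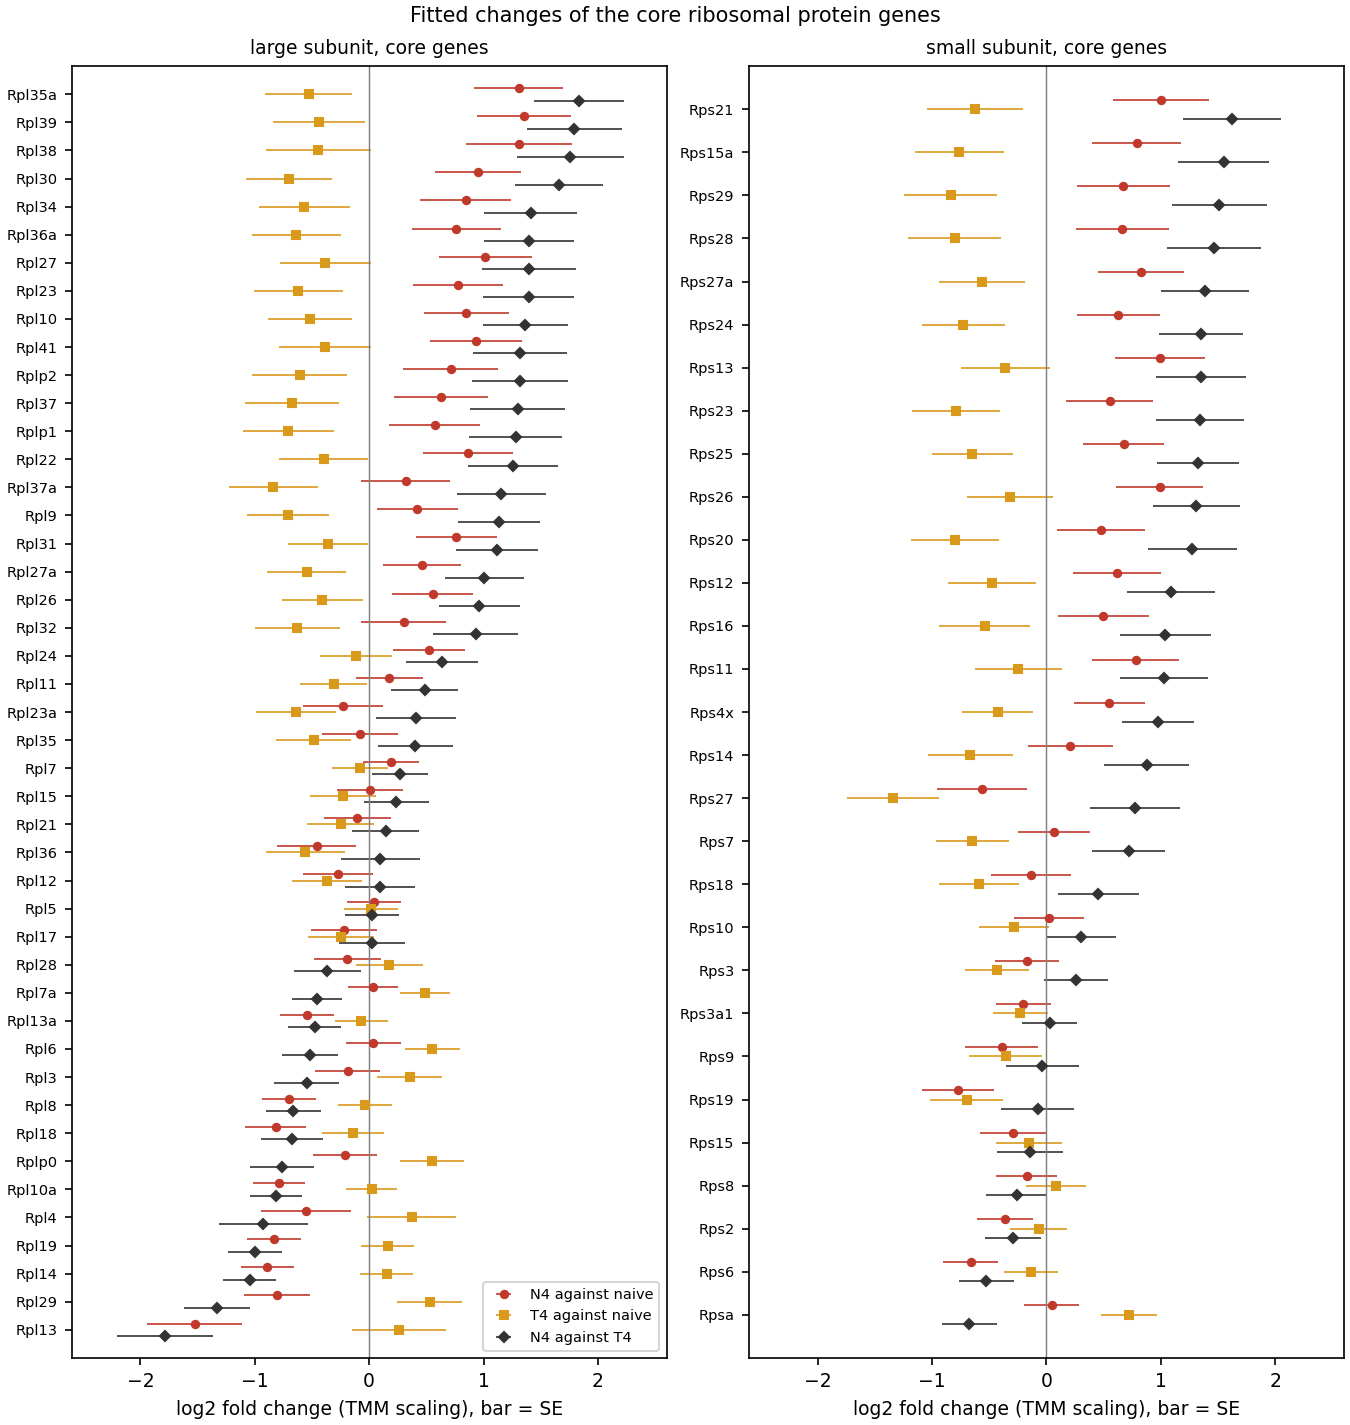
Log2 fold change of core genes (horizontal axis, bar = SE) for N4 against naive (circles), T4 against naive (squares) and N4 against T4 (diamonds), large subunit left and small subunit right, sorted by N4 against T4. Core genes on a list of genes not drawn are left out. Values for N4 against T4 run from -1.79 for Rpl13 to 1.84 for Rpl35a, and most T4 against naive values are below 0.

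Between T4 and naive libraries no ribosomal protein gene was called, in a comparison that called 0.117% of all genes (27 of 23003), 0.0826% higher and 0.0348% lower. By edgeR's quasi-likelihood test the smallest adjusted p among core genes was 0.22, and at an unadjusted p under 0.05 there was 1 core gene on the high side, Rpsa, and 1 on the low side, Rps27, beside 14.5% of all genes. DESeq2, which called 8.68% of all genes here, called 1 large and 2 small subunit members, all lower. So did edgeR without naive replicate 1, where 1.39% of all genes were called and where Rpl3l and Rps27 were among them (adjusted p = 0.036 and 0.034). In simulated data with this spread, in which few genes were changed, 1.49% of 2-fold and 35.8% of 4-fold changes were found in this comparison. Most changes of that size were thus missed under that setting.

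Most point estimates were negative: 34 of 46 large and 29 of 31 small subunit genes, with medians of -0.38 and -0.48 on the log2 scale, against 0.004 for all genes and -0.28 for 603 other genes of high level. For the small subunit 16 of 31 genes had both T4 libraries below both naive libraries, as did 22.6% of all genes, and 1 the other way. For the large subunit 9 of 46 did, and 7 the other way, as did 26.2% of all genes. With library totals 10 large and 12 small subunit genes were apart on the low side (13.9% of all genes) and 18 and 6 on the high side (34.8%), so for the large subunit the balance turned. The naive libraries are those of N4 against naive, so these comparisons are not independent. Without naive replicate 1 the large and small subunit medians were -0.83 and -0.98, and without naive replicate 2 they were 0.044 and -0.043, so both depend on which naive library they are set against.

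Rps27 had the lowest value. It stood at 2108 and 2519 CPM in T4 and at 3988 and 7714 CPM in naive libraries, a log2 fold change of -1.34 ± 0.40 (SE, adjusted p = 0.22). Rpl37a, Rpl9 and the stalk protein gene Rplp1 had values of -0.84, -0.71 and -0.71 (adjusted p = 0.40, 0.44 and 0.49), and Rps29 and Rps28 had -0.84 and -0.80 (adjusted p = 0.43 and 0.44). At the other end, Rpsa, whose protein is also known as the laminin receptor, stood at 551.1 and 551.9 CPM in T4 and at 355.1 and 314.1 CPM in naive libraries (0.72 ± 0.24, SE, adjusted p = 0.26). Rplp0 and Rpl6 followed at 0.55 each (adjusted p = 0.45 and 0.37), and Rpl29 at 0.53 (adjusted p = 0.47). For each of the genes named here the T4 and naive libraries did not overlap, which picking the extremes of this comparison favours. Of all genes 22.6% were apart on the low and 26.2% on the high side. Rpl3l, low in T4 as in N4 and again with only a fall open to it, was at -5.05 ± 0.89 (SE, adjusted p = 0.096).

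N4 against T4 separates the strong from the weak peptide, and here 5 large subunit genes and no small subunit gene were called, in a comparison that called 7.96% of all genes, 3.48% higher and 4.47% lower. Rpl39l, Rpl22l1 and Rpl35a were higher and Rpl29 and Rpl14 were lower in N4. These are therefore 2 paralogs and 3 core genes, 1 higher and 2 lower.

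Rpl35a (ENSMUSG00000060636.15, chromosome 16, 33056453 to 33060189, plus strand), mutated in some human Diamond-Blackfan anaemia, stood at 2979 and 4023 CPM in N4 and at 893.1 and 1068 CPM in T4 libraries. The log2 fold change was 1.84 ± 0.39 (SE, adjusted p = 0.046). Rpl14 (ENSMUSG00000025794.10, chromosome 9, 120571444 to 120574654, plus strand), a structural protein of the large subunit, stood at 300.4 and 270.6 CPM in N4 and at 577.2 and 600.2 CPM in T4 libraries (-1.04 ± 0.23, SE, adjusted p = 0.049). Both genes carry a long pyrimidine run at the annotated start, printed above, 13 bases in Rpl35a and 14 in Rpl14, and they differed between the groups in opposite directions. Rpl29 (ENSMUSG00000048758.15, chromosome 9, 106429454 to 106431568, plus strand), whose protein is also known to bind heparin, stood at 161.8 and 108.6 CPM in N4 and at 340.8 and 340.5 CPM in T4 libraries (-1.33 ± 0.29, SE, adjusted p = 0.047).

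The paralogs differed by more. Rpl39l stood at 15.6 and 20.4 CPM in N4 and at 2.16 and 2.18 CPM in T4 libraries, a log2 fold change of 3.05 ± 0.44 (SE, adjusted p = 0.025). Rpl22l1 stood at 835.5 and 1177 CPM in N4 and at 221.0 and 270.7 CPM in T4 libraries (2.03 ± 0.35, SE, adjusted p = 0.032). For these 5 genes, picked by the test on the same libraries, N4 and T4 did not overlap. Of all genes 27.6% were apart on the high and 37.6% on the low side. No gene of the 5 kept its call when any N4 or T4 library was left out: without N4 replicate 1 the adjusted p was 0.062 to 0.14 over the 5, without N4 replicate 2 it was 0.096 to 0.24, without T4 replicate 1 it was 0.15 to 0.35, and without T4 replicate 2 it was 0.16 to 0.34. All 5 kept it without either naive library.

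**Figure D3:**
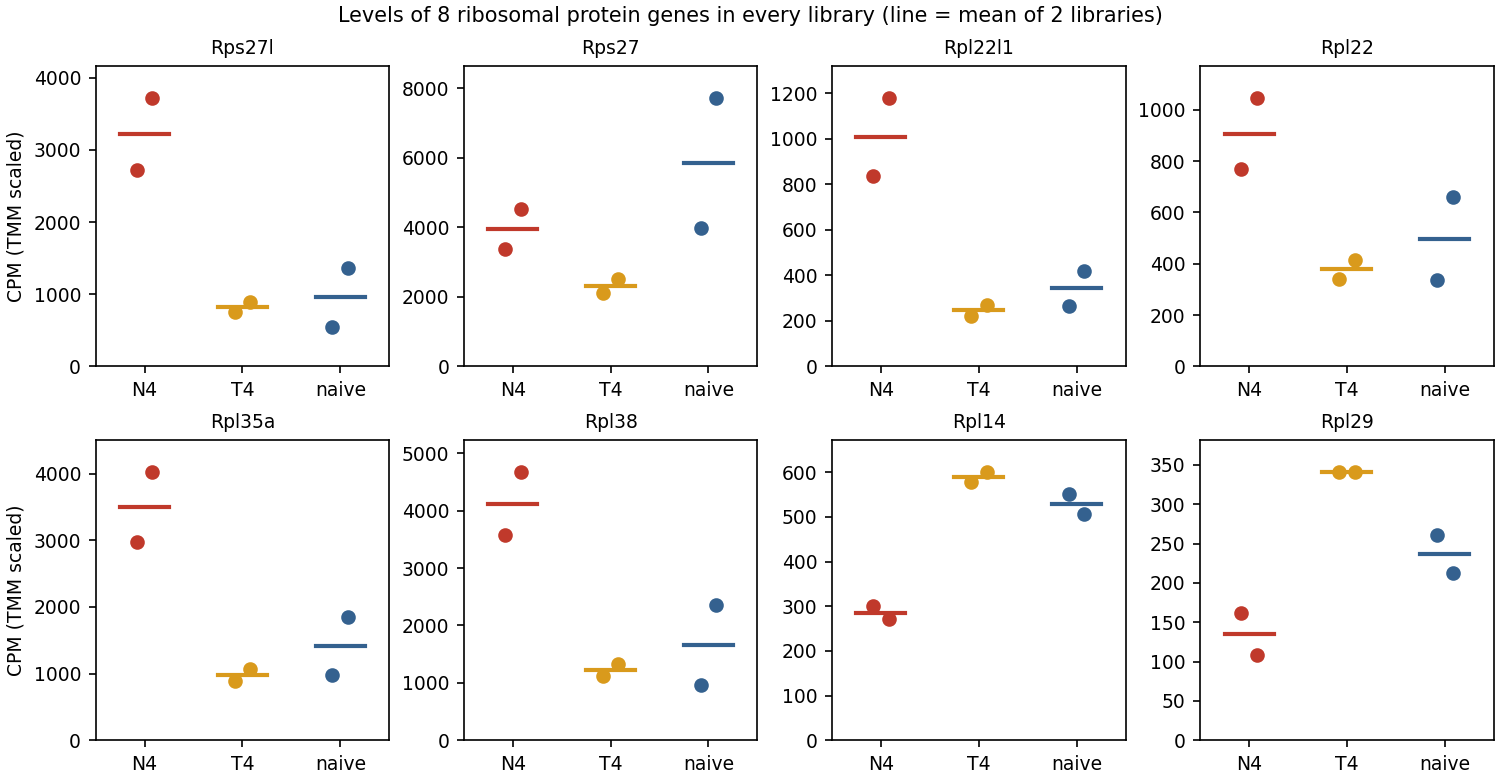
Scaled CPM of 8 ribosomal protein genes in N4, T4 and naive libraries; points are libraries and lines are the means of 2. Rpl35a is at 2979 and 4023 CPM in N4 and 893.1 and 1068 CPM in T4 libraries, and Rpl14 is at 300.4 and 270.6 CPM in N4 and 577.2 and 600.2 CPM in T4 libraries.

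Below the threshold the core genes again went both ways. Positive values were found for 31 of 46 large and 23 of 31 small subunit genes, with medians of 0.41 and 0.98, against -0.20 for all genes and 1.13 for 603 other genes of high level. At an unadjusted p under 0.05, 20 large and 16 small subunit genes were higher and 8 and 1 were lower, beside 29.2% of all genes. The small subunit thus had no call by edgeR, while DESeq2, which called 25% of all genes here, called 19 large and 16 small subunit core genes higher and 7 and 1 lower. Without naive replicate 1, which is in neither group compared, edgeR called 20 large and 17 small subunit genes higher and 7 and 1 lower, where 17.3% of all genes were called. Without naive replicate 2 these were 19, 17, 7 and 0, where 17.6% were. Groups did not overlap for 26 of 46 large and 22 of 31 small subunit genes on the high side, as did 27.6% of all genes, and for 15 and 5 on the low side, as did 37.6%. Each count moves with the scaling between libraries: with library totals alone, 19 and 16 were apart on the high side (13.0% of all genes) and 26 and 13 on the low side (60.3%). The median of all genes moved with it, to -0.65 in N4 against naive, 0.30 in T4 against naive and -1.05 in N4 against T4. A change of scaling shifts all genes by nearly the same amount, so values relative to that median hardly depend on it and cannot test it. In N4 against T4 large subunit genes lay 0.60 above the median of all genes and small subunit genes 1.17 above it. With library totals they lay 0.58 and 1.15 above it. In N4 against naive they lay 0.20 and 0.56 above it, and 0.24 and 0.64 with library totals, but without naive replicate 1, where the median of all genes was 0, they lay below it at -0.10 and -0.044. In T4 against naive they had values of -0.38 and -0.48 relative to it, and -0.27 and -0.37 with library totals.

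At the top of the small subunit were Rps21 (1.63 ± 0.43, SE, adjusted p = 0.068), Rps15a (1.55 ± 0.40, SE, adjusted p = 0.064) and Rps29 (1.51 ± 0.42, SE, adjusted p = 0.075). On the large subunit Rpl39 (1.79) and Rpl38 (1.76) followed Rpl35a, with adjusted p of 0.054 and 0.070. At the bottom were Rpl13 at -1.79 ± 0.42 (SE, adjusted p = 0.055), which stood at 439.2 and 233.5 CPM in N4 and at 1191 and 1129 CPM in T4 libraries, and on the small subunit Rpsa at -0.67 and Rps6 at -0.53 (adjusted p = 0.13 and 0.21).

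Other genes of known function had no call in N4 against T4 by edgeR's quasi-likelihood test with TMM scaling. DESeq2 called some of them, Rplp0 and Rpl10a lower and Rplp1, Rplp2, Rps24 and Rps27a higher in N4. Rplp0, the base of the stalk that recruits elongation factors, was at -0.76 ± 0.28, while its partners Rplp1 and Rplp2 were at 1.28 ± 0.40 and 1.32 ± 0.42 (SE, adjusted p = 0.14, 0.099 and 0.10). Rpl5 and Rpl11, which carry the 5S RNA and can bind Mdm2, were at 0.03 ± 0.24 and 0.48 ± 0.29 (SE, adjusted p = 0.96 and 0.33). Rpl10a of the L1 stalk was at -0.81 and Rpl13a, known from the interferon-gamma-activated translation inhibitor complex, at -0.48 (adjusted p = 0.076 and 0.24). Rpl12 of the stalk base was at 0.10 and Rps3 of the mRNA entry site at 0.26 (adjusted p = 0.88 and 0.59), and with library totals both reversed, to -0.77 and -0.60 (adjusted p = 0.025 and 0.040). Rps14, Rps24 and Rps27a, whose protein starts as a fusion to ubiquitin, were at 0.88, 1.35 and 1.39 (adjusted p = 0.18, 0.073 and 0.075), and Rps9 at -0.04 (adjusted p = 0.96).

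The direction of a core gene went with the length and the GC content of its transcripts. In N4 against T4 the Spearman correlation of log2 fold change with length across genes was -0.59 for the 46 large and -0.29 for the 31 small subunit genes, and the 39 shorter core genes had a median of 1.13 against 0.03 for the 38 longer ones. In N4 against naive the correlation over the 77 genes was -0.37 and those medians were 0.62 and -0.05. In T4 against naive it was 0.43, with medians of -0.49 and -0.19. With GC content the correlation over the 77 genes was -0.41 in N4 against naive, 0.29 in T4 against naive and -0.41 in N4 against T4. In N4 against T4 it was -0.38 for the large and -0.45 for the small subunit. These are descriptions across genes that share libraries and are not independent.

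Length also went with the difference between replicates of one group. Across the 77 core genes, the log2 difference of replicate 1 minus replicate 2 correlated with length at 0.46 within N4, 0.48 within T4 and 0.59 within naive libraries, and across other genes of high level at 0.36, 0.51 and 0.49. In those other genes the change between groups followed length less, at -0.05 in N4 against naive, 0.12 in T4 against naive and -0.11 in N4 against T4 (599 genes). After correction of each library for GC content and length, the correlations of the core genes became -0.32, 0.07 and -0.31 in that order of comparisons. With that correction 16 core large and 14 core small subunit genes were called higher in N4 than in T4 and 3 and 1 lower, where 10.2% of all genes were called. In N4 against naive it was 12 and 8 higher and 3 and 3 lower, where 16.8% were. What part length and GC content play in the changes of single genes was not tested further.

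**Figure D4:**
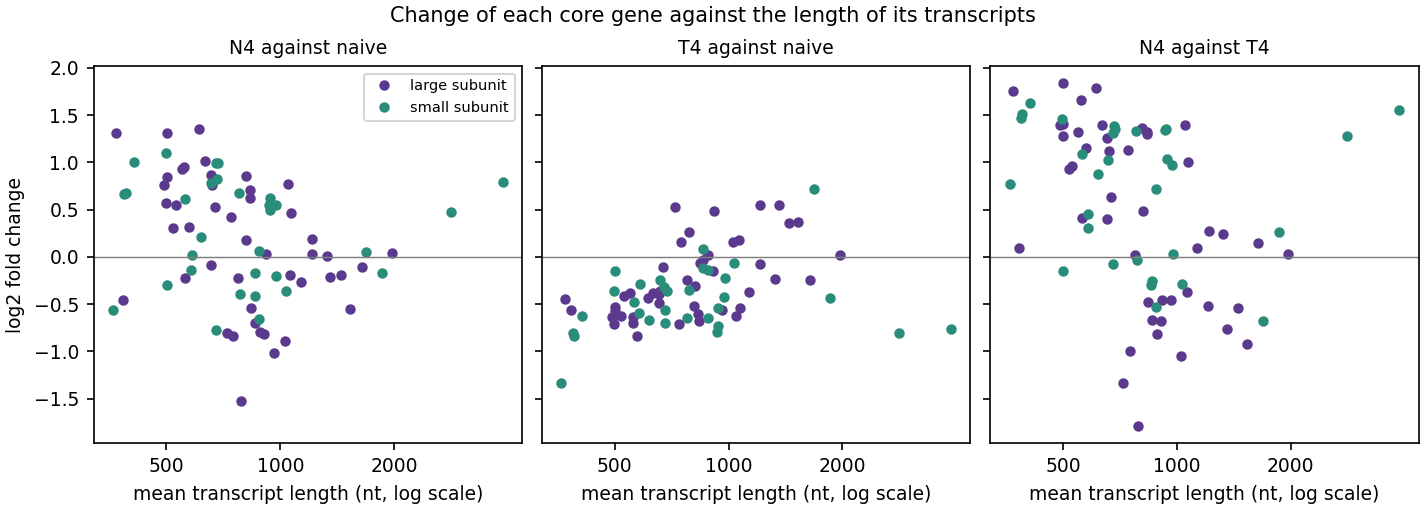
Log2 fold change of each of the 77 core genes (vertical axis) against the mean length of its transcripts in nt (horizontal, log scale), for N4 against naive, T4 against naive and N4 against T4, with large and small subunit genes in separate colours. Shorter genes lie higher in N4 against T4, with a Spearman correlation of -0.59 for the large and -0.29 for the small subunit.

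Paralog use can be compared within a library and so needs no scaling between libraries, and among the 5 pairs plotted its ratio differed most for Rps27l in both comparisons with naive libraries, and most for Rpl39l in N4 against T4. Its share of the counts of Rps27l and Rps27 together was 44.6% and 45.0% in N4, with 26.3% and 26.0% in T4 against 12.1% and 15.1% in naive libraries. The 3 groups did not overlap. The ratio of Rps27l to Rps27 was 5.18-fold higher in N4 than in naive libraries, 2.27-fold higher in T4 than in naive libraries and 2.29-fold higher in N4 than in T4 libraries. Counts per transcript length gave shares of 36.8% and 37.1% in N4, with 20.4% and 20.1% in T4 against 8.99% and 11.1% in naive libraries.

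Whether either gene of this pair passed the threshold by itself depended on the processing. Rps27l (ENSMUSG00000036781.14, chromosome 9, 66946086 to 66949516, plus strand), whose gene is known as a p53 target, stood at 2715 and 3712 CPM in N4, with 753.6 and 885.7 in T4 against 551.1 and 1368 in naive libraries. Its log2 fold change was 1.74 ± 0.48 in N4 against naive and 1.97 ± 0.48 in N4 against T4 (SE, adjusted p = 0.067 and 0.059 by edgeR), short of the threshold, while DESeq2 gave Rps27l adjusted p of 0.0029 and 0.00043. Rps27 was not called by edgeR with TMM scaling of all 6 libraries, and DESeq2 called it lower in T4 against naive (adjusted p = 0.012). With library size scaling edgeR called Rps27 lower in N4 against naive (-1.035, adjusted p = 0.016). Rps27 (ENSMUSG00000090733.7, chromosome 3, 90212522 to 90213651, minus strand) was at 6371 and 6483 TPM in N4, with 7371 and 8050 TPM in T4 against 13600 and 13830 TPM in naive libraries, so that naive libraries were the highest on this scale. Rps27rt, a single-exon copy, shares 91.1% of its 50-base stretches with Rps27, and its 113.7 and 119.8 CPM in N4, with 50.9 and 64.1 in T4 against 98.1 and 192.9 in naive libraries cannot be told apart from reads of Rps27. The Rps27l transcript shares 22.4% of its stretches with any other gene and none with Rps27.

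Rpl22l1 is the paralog of Rpl22, which mice are known to need for normal alpha beta T cell development. Its share of the pair was 52.1% and 53.0% in N4, with 39.2% and 39.5% in T4 against 44.2% and 38.9% in naive libraries. Both N4 libraries were above all others, and T4 and naive libraries overlapped. The ratio to Rpl22 was 1.56-fold higher in N4 than in naive libraries and 1.70-fold higher in N4 than in T4 libraries. Share and ratio count all transcripts of each gene. Transcripts not annotated as protein coding held 64.8% to 94.3% of Rpl22 counts by library, most in N4, against 2.47% to 6.47% of Rpl22l1 counts. They therefore do not compare coding transcripts alone. Rpl22 itself stood at 768.4 and 1044 CPM in N4, with 342.3 and 414.1 in T4 against 334.9 and 660.7 in naive libraries, with no call (adjusted p = 0.20 in N4 against naive, 0.097 in N4 against T4).

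Rpl39l was a small part of its pair with Rpl39 everywhere, at 0.695% and 0.668% in N4, with 0.317% and 0.259% in T4 against 0.309% and 0.325% in naive libraries. Its ratio was 2.16-fold higher in N4 than in naive and 2.39-fold higher in N4 than in T4 libraries, and its transcript shares no 50-base stretch with another gene. Rpl36al made up 57.7% and 57.8% of its pair in N4, with 61.3% and 60.6% in T4 against 56.0% and 55.8% in naive libraries, so that it was the major copy in all of them. Rpl7l1 made up 5.56% and 3.62% of its pair in N4, with 9.60% and 7.64% in T4 against 9.33% and 4.46% in naive libraries, with N4 and T4 apart and the naive libraries spanning both.

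**Figure D5:**
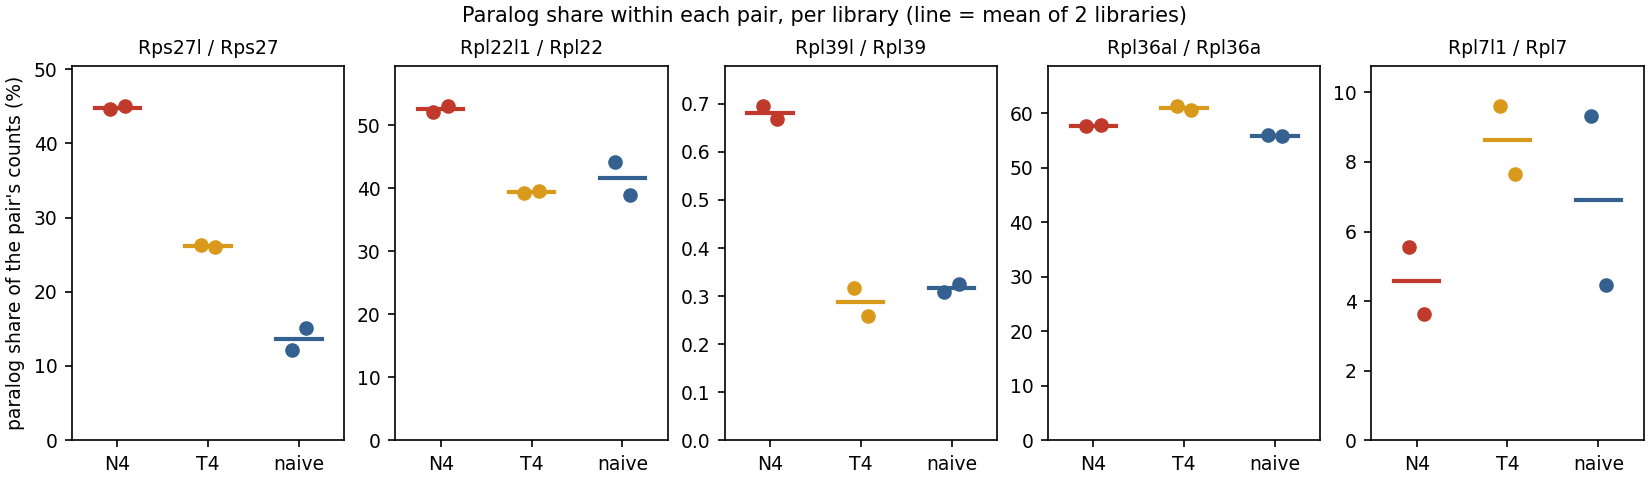
Share of a paralog in the counts of the paralog and its core copy, in percent, for 5 pairs in N4, T4 and naive libraries; points are libraries and lines are means of 2. Rps27l is at 44.6% and 45.0% in N4, with 26.3% and 26.0% in T4 against 12.1% and 15.1% in naive libraries.

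Ribosomal protein genes also differed in which annotated transcripts carried their counts. Transcripts not annotated as protein coding (retained introns, decay targets and processed transcripts) held 8.14% and 8.08% of the members' counts in N4, with 10.3% and 9.83% in T4 against 11% and 9.99% in naive libraries. N4 libraries were below all others. In other protein-coding genes the share was 6.29% and 5.82% in N4, with 8.67% and 6.79% in T4 against 6.84% and 5.62% in naive libraries, where N4 and naive overlapped. Retained introns separated N4 from the other groups in both sets of genes: they held 3.74% and 3.68% of the members' counts in N4, with 5.18% and 4.69% in T4 against 5.01% and 4.40% in naive libraries. In other protein-coding genes they held 3.08% and 3.18% in N4, with 4.22% and 4.17% in T4 against 4.19% and 3.46% in naive libraries. Decay targets alone held 1.51% and 1.26% of the members' counts in N4, with 2.89% and 2.37% in T4 against 2.94% and 1.80% in naive libraries, and 2.28% and 1.69% of those of other protein-coding genes in N4, with 3.32% and 1.48% in T4 against 1.55% and 1.19% in naive libraries. Processed transcripts went the other way between N4 and T4, at 2.89% and 3.15% of the members' counts in N4, with 2.23% and 2.77% in T4 against 3.09% and 3.79% in naive libraries. Measures of the whole libraries moved with these shares. The nuclear RNA Malat1 held 0.0207% and 0.0209% of all counts in N4, with 0.133% and 0.136% in T4 against 0.129% and 0.0685% in naive libraries. Mitochondrial genes held 3.30% and 3.95% in N4, with 2.23% and 2.12% in T4 against 3.13% and 3.11% in naive libraries. Genes with a count numbered 21579 and 21317 in N4, with 27147 and 27098 in T4 against 24280 and 23871 in naive libraries. Their part in the transcript shares was not tested. In Rpl22 transcripts not annotated as protein coding held 94.3% and 94.3% of counts in N4, with 75.9% and 80.1% in T4 against 64.8% and 74.2% in naive libraries. A long protein-coding transcript of that gene, Rpl22-208 of 2048 nt, held 3.67% and 4.23% in N4, with 23.6% and 19.7% in T4 against 35.0% and 24.5% in naive libraries, without a call (adjusted p = 0.11 in N4 against naive, 0.21 in N4 against T4).

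Relative transcript use was tested with edgeR's diffSpliceDGE, which covered 474 transcripts of 79 members. It called 3 in N4 against naive, where 0.286% of all 43037 transcripts were called, none in T4 against naive (0.102%; 9 at an unadjusted p under 0.05), and 3 in N4 against T4 (0.337%). In both comparisons these were Rpl34-203, Rps18-207 and Rpl10a-209, each with a smaller fitted part of its gene in N4. Rps18-207, which retains an intron, held 0.251% and 0.671% of its gene in N4, with 18.5% and 1.65% in T4 against 20.4% and 0.594% in naive libraries. Rpl10a-209 had 0 counts in both N4 libraries, 5389 and 5633 counts in T4 libraries, and 12935 and 0 counts in naive libraries. Rpl34-203 had 2 and 2 counts in N4, with 1679 and 1796 in T4 against 1938 and 2 in naive libraries. Rpl10a-209 and Rpl34-203 were thus at or near 0 counts in N4 and passed the filter on low counts through other libraries. A fall in N4 was the only direction open to them. For all 3 transcripts naive replicate 2 was near the N4 libraries, so that against naive the smaller part in N4 rests on naive replicate 1. Naive replicate 1 was near T4 replicate 1 for Rps18-207 and Rpl34-203, and above both T4 libraries for Rpl10a-209. In N4 against naive 5 were called without naive replicate 2, 1 without N4 replicate 1 and 0 without any other library. In N4 against T4 4 were called without either naive library, 1 without N4 replicate 1 or T4 replicate 2, and 0 without N4 replicate 2 or T4 replicate 1. In T4 against naive 2 were called without naive replicate 2.

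Genes around the ribosome were described from lists of other translation genes, whose counts stand beside 4.87% of all genes called higher and 7.18% lower in N4 against naive, and 3.48% and 4.47% in N4 against T4. The shares called higher in N4 against naive among initiation factor, ribosome biogenesis, mTORC1 and mitochondrial ribosome genes were near that background. Fau and Rack1, which encode core proteins under other symbols, had no call in any comparison. Of 18 elongation factor and other TOP mRNA genes 3 rose in N4 against naive, Nap1l1, a histone chaperone (1.59 ± 0.23, SE, adjusted p = 0.015), Hnrnpa1, a splicing regulator (0.94 ± 0.22, SE, adjusted p = 0.044), and the initiation factor gene Eif3e (0.96 ± 0.23, SE, adjusted p = 0.048). In N4 against T4 Eif3e was also higher (1.44 ± 0.23, SE, adjusted p = 0.028). The elongation factor gene Eef1a1 was at 0.28 (adjusted p = 0.45) and the nucleolar chaperone gene Npm1 at 0.56 (adjusted p = 0.17) in N4 against naive, both named after their values were seen. The median of that list was 0.22 in N4 against naive, 0.28 in T4 against naive and 0.36 in N4 against T4.

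Of 29 initiation factor genes 2 were higher in N4 against naive and in N4 against T4, Eif4g2 (1.44 ± 0.24 and 1.60 ± 0.24, SE, adjusted p = 0.020 and 0.026) and Eif1ax, which helps scan for the start codon (1.66 ± 0.28 and 1.56 ± 0.28, SE, adjusted p = 0.021 and 0.034). Of 31 ribosome biogenesis genes 1 rose in N4 against naive, Nop58 of the box C/D particles (1.14 ± 0.26, SE, adjusted p = 0.043). Of 16 genes of mTORC1 and TOP mRNA control 1 rose in N4 against naive, Rps6kb1, which encodes a kinase of Rps6 (1.19 ± 0.24, SE, adjusted p = 0.032). Of 9 tested chaperones and importers of ribosomal proteins the importers Ipo5 and Ipo7 rose and the dedicated chaperones Pdcd2l and Aamp fell in N4 against naive, Ipo5 with a log2 fold change of 1.9 ± 0.27 and Pdcd2l with -1.76 ± 0.34 (SE, adjusted p = 0.014 and 0.028). T4 against naive called none in these lists. Of 78 mitochondrial ribosomal protein genes, which serve a separate ribosome, 3 rose in N4 against naive and 3 were higher and 4 lower in N4 against T4, with medians of 0.18 and -0.16.

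The single-gene values share a limit of counting. Of the 85 members 82 share at least 1 stretch of 50 bases with another annotated gene, and 44 share most of their stretches. Exons of 16 overlap those of another protein-coding gene, among them Rpl5, Rpl12, Rpl13a, Rpl36al, Rps18, Rps27a and Rps28, and the kit does not mark strand, so their values are less certain.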

How the data were processed

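Per the labels' protocols, QIAGEN's miRNeasy Micro kit gave the RNA and a SMARTer ultra-low input kit for polyadenylated RNA the libraries. Kits of this type do not mark strand. DESeq2 1.30.1, R 4.0.5, StringTie 2.1.0, STAR 2.7.1a, SAMtools 1.9 and the build mm39 are listed without roles, per the submitters' processing notes. The authors deposited estimated counts per gene and per transcript as whole numbers that are not normalized. The annotation release and read length: not given in the sources used here. Totals were 269033066 to 335968843 estimated counts per library; they are not taken as reads, and intervals would cover counting error only.

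Symbols were found for 94.0% of gene identifiers and GENCODE M21 models on GRCm38 for 97.1% of transcripts; these gave transcript types, lengths and coordinates. Genes were tested with edgeR 4.0.16 (limma 3.58.1, R 4.3.3): TMM scaling, filterByExpr by group, a quasi-likelihood fit of 3 group means to 6 libraries, Benjamini-Hochberg adjustment over 23003 genes and a threshold of 0.05. TMM factors ran from 0.641 to 1.36. Fold changes are the first-named group over the second. Transcripts were tested with diffSpliceDGE. TPM, shares and ratios were computed per library. Alternatives were scaling, DESeq2 1.42.0, filter, block, GC and length correction, pseudogene sums and left-out libraries.

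The members and all lists were chosen with earlier results of these data known. Named genes are called members, the 3 highest and lowest core genes per comparison and subunit whose mean log2 CPM reached 3, all paralogs and a set of core genes of known function. Of each other list they are the 3 genes with the smallest p in each comparison, and called genes. Some genes that this rule names are not reported here. Levels per length, transcripts and the share of non-coding transcripts are outside that rule and were chosen after their values were seen. Replicates of a group differed by a chi-square per degree of freedom of 96.7 to 1883.6, so none is a duplicate. On simulated counts for 23003 genes the gene test found 0% of 2-fold, 20.9% of 4-fold and 98.5% of 16-fold changes in N4 against naive and 0%, 25.4% and 95.5% in N4 against T4. Fewer genes were changed there than were called in these comparisons, which makes the adjustment stricter than in the data. In the data changes below 2-fold were called, such as Hnrnpa1 at 0.94 in N4 against naive. The simulated shares are therefore not the power of the test here. The transcript test found 4.5% and 3% of 16-fold changes of minor transcripts in simulated N4 against naive and N4 against T4, and 100% when the spread was set low. The gene Rps4l is not analysed here.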

Additional observations from a re-analysis of the deposited data

How the results depend on the processing

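The counts of called members depended on the processing. For large and small subunit members the main counts were 3, including Rpl3l, which could only fall, and 0 in N4 against naive. The main counts were 0 and 0 in T4 against naive, and 5 and 0 in N4 against T4. In N4 against naive they were 20 and 13 with library size scaling, 15 and 3 with DESeq2, 8 and 1 with no filter, 11 and 4 with the replicate number as a block, 19 and 13 with GC and length correction, and 1 large subunit member with only the 2 groups compared. The share of all genes called was 12.1% as reported and, in that order, 10.7%, 26.9%, 12.2%, 15.7%, 16.8% and 5.04%. In N4 against T4 they were 20 and 14 with library size scaling, 29 and 19 with DESeq2, 15 and 10 with no filter, 30 and 21 with only the 2 groups, 26 and 15 with the block, and 20 and 16 with GC and length correction, where 7.96% of all genes were called as reported and 8.94%, 25%, 11%, 24.7%, 14.6% and 10.2% in that order. In T4 against naive DESeq2 called 1 and 2 (8.68% of all genes), and no filter 1 large subunit member (2.74%). With library size scaling most core calls were lower (15 of 17 large in N4 against naive), while with DESeq2, no filter, only the 2 groups, the block or GC and length correction most were higher in N4 than in T4. Leaving out one library gave 0 to 22 and 0 to 11 in N4 against naive, 0 to 1 and 0 to 2 in T4 against naive, and 0 to 30 and 0 to 20 in N4 against T4, where 30 and 20 came without naive replicate 1, 29 and 19 without naive replicate 2, and 0 without any N4 or T4 library. The causes were not tested; leaving out a library also leaves fewer degrees of freedom. Deviations of libraries with the same replicate number were hardly correlated between groups (0.02 to 0.08). Core genes nevertheless shared a direction: the median of replicate 1 minus replicate 2 was negative in every group, from -0.77 to -0.19. These values do not settle whether replicate numbers pair the libraries.

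Median log2 fold changes moved beyond the spread between replicates with library size scaling, to -0.41 (large, N4 against naive), 0.027 (large, T4 against naive), -0.47 (large) and 0.10 (small, both N4 against T4), and with GC and length correction, to 0.023 (large, T4 against naive) and 0.59 (small, N4 against T4). Without one library the large subunit median ran from -0.829 to 0.044 in T4 against naive. Set against the median of all genes, core genes were higher in N4 than in T4 under all 14 alternatives. The values were 0.38 to 0.99 for the large and 0.88 to 1.55 for the small subunit. Alternatives that only change the scaling could hardly move them. Against the 603 other genes of high level the core genes were not higher: the median of those was 1.13, above 0.41 for large and 0.98 for small subunit genes. In N4 against naive core genes were above the median of all genes under 12 and 13 of the alternatives. The values ran from -0.10 to 0.38 for the large and -0.044 to 0.88 for the small subunit. The negative ones came without naive replicate 1 (both) and with no filter (large, -0.027).

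Called transcripts fell to 0 in N4 against naive and 1 in N4 against T4 with the block, and ran from 0 to 5, 0 to 2 and 0 to 4 in N4 against naive, T4 against naive and N4 against T4 without one library. Per transcript length, the log2 ratio of the small subunit share in N4 against T4 was -0.059, that of large to small counts 0.12 in N4 against naive and -0.015 in N4 against T4, and that of Rpl22l1 to Rpl22 0.36 in N4 against naive and 0.60 in N4 against T4. The ratio of Rps27l to Rps27 kept its direction in each setting run.

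Over 45 named members, 3 comparisons and 14 settings (1890 values), 37 calls were lost, 241 gained and 2 reversed: Rpl12 at -0.77 and Rps3 at -0.60 in N4 against T4 with library size scaling. The sign changed in 109 of the values, the 2 reversed ones included. Beside the left-out libraries, calls in N4 against T4 were lost for Rpl22l1 (0.54, adjusted p = 0.12) and Rpl29 (adjusted p = 0.069) with GC and length correction, and for Rpl14 with TMM factors without the members or with pseudogene sums (adjusted p = 0.051 each). Those of Rpl22l1 and Rpl39l in N4 against naive were lost with only the 2 groups (adjusted p = 0.11 and 0.060).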
